A study of Mus musculus with 12 samples.

Results

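The interferon-inducible GTPases described here are 10 genes of the guanylate-binding protein (GBP) and immunity-related GTPase (IRG) families, measured in mouse liver after part of the organ had been removed by surgery (partial hepatectomy). They were chosen by symbol, with their values in these libraries already known: Gbp2, Gbp3, Gbp6, Gbp7 and Gbp10 of the GBP family, and Tgtp1, Iigp1, Irgm1, Irgm2 and Igtp of the IRG family. All 10 of 10 were found among the 13554 genes of the deposited table, and all 10 were among the 12570 genes that passed the filter on low values. On postoperative day 3, liver was taken from male mice of the C57Bl/6J strain, all wild type, and 12 libraries were made, in 4 groups of 3. The groups were resection of 70% of the liver (PH70), resection of 80% (PH80), the 80% resection in an arm called HC (PH80_HC), and the 80% resection with HNF4a, a transcription factor of hepatocytes, and G-CSF, which drives granulocyte production (PH80_G+H). The sources used here give neither what HC stands for, nor how and when G-CSF and HNF4a were given, nor the age of the mice. Whether each library of a group is a separate animal is not stated either, so a p-value here reflects differences among these libraries, and those may be technical.

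GBPs and IRGs are enzymes that bind and hydrolyse GTP and are made in large amounts after interferon. They gather on the membranes of vacuoles that hold parasites or bacteria and help to break these compartments open. Interferon gamma, secreted mainly by T cells and NK cells, binds the receptor IFNGR1/IFNGR2 and acts on genes through gamma-activated sites (GAS) in DNA. It also induces IRF1, a transcription factor that binds interferon-stimulated response elements (ISRE), the same kind of element through which type I interferons act. Within the IRG family, Irgm1, Irgm2 and Igtp encode regulators that sit on the cell's own membranes and keep the effector IRGs inactive there, and Tgtp1 and Iigp1 encode effectors that load onto vacuoles. In mouse liver Iigp1 is known to be transcribed without infection, from a liver-specific promoter.

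The promoters are shown first, because the elements through which interferon acts can be read in them. RefSeq windows on GRCm38.p6, from 250 bases before to 50 bases after each annotated start, matched 7 of the 10 members with 8 windows, and Gbp6, Gbp10 and Iigp1 had none. GAS was searched as TTC, any 3 bases and GAA, which reads the same on both strands. ISRE was searched as GAAA, any 2 bases and GAAA, or on the other strand as TTTC, any 2 bases and TTTC. The stretches below run 5′ to 3′ along the gene, up to 11 bases before the start where no more than 30 bases lie in an annotated exon, and capitals mark GAS and ISRE matches, which merge where matches overlap.
Gbp2 (chr3:142620553-142620631, plus strand): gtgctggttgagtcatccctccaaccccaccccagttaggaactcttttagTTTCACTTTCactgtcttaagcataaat
Gbp3 (chr3:142559934-142560033, plus strand): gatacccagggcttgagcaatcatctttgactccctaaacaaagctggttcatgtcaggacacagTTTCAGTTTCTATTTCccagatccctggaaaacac
Gbp7 (chr3:142530226-142530325, plus strand): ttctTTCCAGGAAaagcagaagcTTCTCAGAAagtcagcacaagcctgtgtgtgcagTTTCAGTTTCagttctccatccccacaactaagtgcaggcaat
Tgtp1 (chr11:48992257-48992356, minus strand): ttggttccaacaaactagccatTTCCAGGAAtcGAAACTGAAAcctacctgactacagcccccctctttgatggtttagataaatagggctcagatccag
Irgm2 (chr11:58214867-58214966, plus strand): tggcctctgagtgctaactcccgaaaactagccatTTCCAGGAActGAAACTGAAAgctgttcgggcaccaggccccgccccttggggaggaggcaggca
Igtp (chr11:58199446-58199545, plus strand): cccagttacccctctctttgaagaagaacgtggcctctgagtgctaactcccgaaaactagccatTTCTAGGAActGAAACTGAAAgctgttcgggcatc
Irgm1 (chr11:48871431-48871460, minus strand): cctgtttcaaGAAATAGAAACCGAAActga

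All 7 matched members held at least 1 ISRE, against 3.44% of 32851 promoter windows in the whole reference, and 4 held a GAS (Gbp7 held 2 of them), against 8.3%. Measured from the RefSeq start, as all distances here, the elements sat close to it. In the GENCODE M21 annotation used below, the matches of Gbp2, Tgtp1, Irgm1 and Irgm2 lie inside the span of their gene, so they are not upstream of that start. GAS matches began 106 and 87 bases before the start in Gbp7, 88 bases before in Tgtp1, 75 in Irgm2 and 45 in Igtp. ISRE matches began 59 bases before the start in Gbp2, 53 in Gbp7, 77 in Tgtp1, 64 in Irgm2 and 34 in Igtp, and overlapping pairs began at 45 and 39 bases in Gbp3 and at 30 and 24 in Irgm1. A second annotated start of Gbp3 held neither element. In Tgtp1, Irgm2 and Igtp the ISRE followed the GAS at the same distance, 11 bases from first base to first base, so that 2 bases lie between the elements. That arrangement, searched for after the stretches had been read, occurred in 5 windows of the reference (0.0152%), those of Tgtp1, Irgm2, Igtp, Tgtp2 and the predicted gene Gm12185, all on chromosome 11 and all from gene copies of 1 family. Gm12185 and Tgtp1 overlap on the same strand over 6900 bases, so their windows may hold the same site. A match describes letters in the window and is not a measured binding site.

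**Figure D1:**
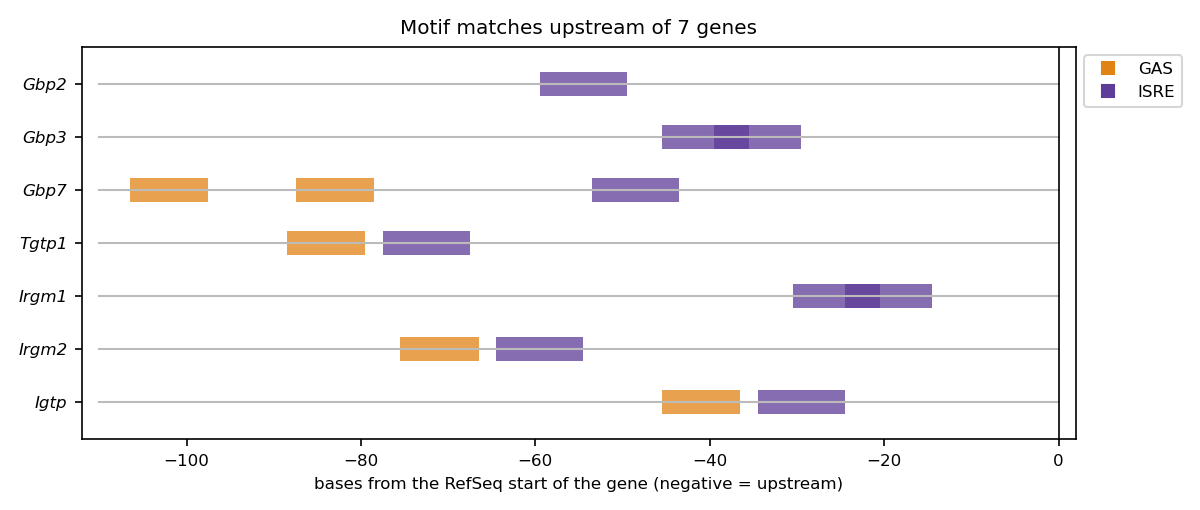
Positions of GAS (orange) and ISRE (purple) matches upstream of the first RefSeq start of the 7 matched members, as distance in bases from that start (x axis), with 1 row per gene. Every row holds an ISRE that begins within 77 bases of the start, and Tgtp1, Irgm2 and Igtp show a GAS followed at the same short distance by an ISRE.

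The members lie in clusters of gene copies (GENCODE M21 coordinates on GRCm38). Gbp7 (chr3:142530342-142550149), Gbp3 (chr3:142560026-142573209) and Gbp2 (chr3:142620602-142638008) are neighbours on chromosome 3, and Gbp10 (chr5:105215699-105239533) and Gbp6 (chr5:105270702-105293698) on chromosome 5. Irgm1 (chr11:48861968-48871683) and Tgtp1 (chr11:48985327-48994172) lie in 1 region of chromosome 11, Igtp (chr11:58199556-58207591) and Irgm2 (chr11:58199618-58222782) in another, and Iigp1 lies at chr18:60376027-60392634. Some copies are close enough that short reads could be assigned to either. Of the distinct 50-base stretches in annotated transcripts, 84.1% of those of Gbp10, 81.2% of those of Tgtp1 and 70.7% of those of Gbp6 also occur in a transcript of another gene, mainly Gbp6, Tgtp2 and Gm43302 respectively. In the other 7 members the share was between 0.31% (Irgm1) and 12.7% (Gbp7). The values of Gbp6, Gbp10 and Tgtp1 are therefore uncertain as values of single genes. Igtp and Irgm2 also overlap on the same strand over 7974 bases, so strand does not separate them there. Tgtp1 and Gm12185 overlap in the same way over 6900 bases.

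The libraries held between 9.72 M and 44.5 M reads (M, 1000000), recovered from the deposited values. Values below are normalised reads, each library's reads divided by its own size factor, and 1 read was worth between 0.495 and 2.23 normalised reads. Errors of means are SD over 3 libraries, and log2 differences are fitted differences of log2(normalised reads + 1) with their SE from limma, which understate the change of genes with low values. The 8 hepatocyte markers were above 0 in every library, and Alb (albumin) alone gave between 1.48 and 3.19 M normalised reads.

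Per kilobase of the longest annotated transcript, Iigp1 was the most abundant member, at a mean of 1819 normalised reads per kilobase over the 12 libraries. The IRG regulators came next, with Irgm1 at 457, Igtp at 371 and Irgm2 at 215 normalised reads per kilobase. The GBPs were lower, from 68.5 for Gbp3 and 59.2 for Gbp2 through 43.5 for Gbp6 and 37.4 for Gbp7 to 19.0 for Gbp10, with Tgtp1 among them at 23.3. The IRG members other than Tgtp1 thus stood above all 5 GBP members on this scale.

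**Figure D2:**
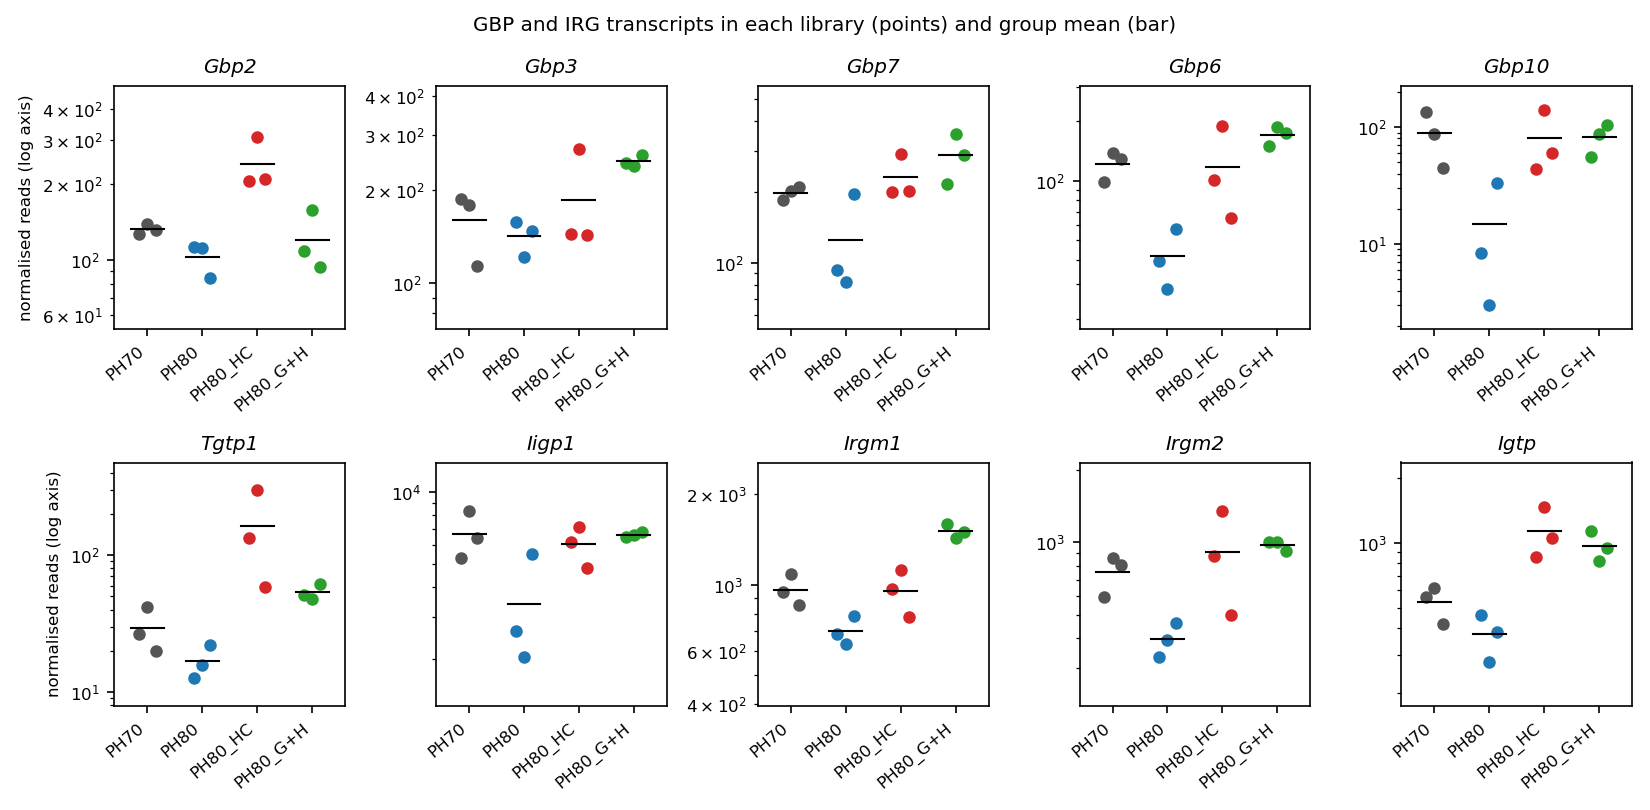
Normalised reads of each member in each of the 12 libraries (log axis), with 1 panel per gene, points coloured by group and a bar at the group mean. PH80 has the lowest mean in all 10 panels, and which group is highest differs between the panels.

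Gbp2 encodes a GBP that is recruited to bacteria and vacuoles and promotes inflammasome activation. It was at 126, 139 and 132 normalised reads in PH70, 113, 111 and 84.4 in PH80, 206, 308 and 209 in PH80_HC and 109, 158 and 93.1 in PH80_G+H. All 3 PH80_HC libraries lay above all 9 others, and the PH80_G+H libraries overlapped those of PH80 and PH70. The log2 difference was 1.21 between PH80_HC and PH80 and 0.20 between PH80_G+H and PH80 (SE 0.24 for each). The latter turned to -0.02 without PH80_G+H replicate 2, so no direction can be given for it. Because the libraries are of whole tissue, fewer cells of a type that make an RNA and less of that RNA per cell cannot be told apart, here and below.

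Gbp3 is its neighbour on chromosome 3 and also belongs to the GBPs that load onto vacuoles. Its values were 186, 179 and 114 normalised reads in PH70, 158, 122 and 148 in PH80, 144, 270.0 and 143 in PH80_HC and 245, 239 and 258 in PH80_G+H. The 3 PH80_G+H libraries were close together and above all PH70 and PH80 libraries, and PH80_HC overlapped every other group, with its replicate 2 the highest of the 12. Gbp7, known to take part in oxidative killing of bacteria, was at 184, 203 and 209.6 normalised reads in PH70, 92.8, 83.0 and 197 in PH80, 201, 291 and 201 in PH80_HC and 217, 354 and 289 in PH80_G+H. Here PH80 replicate 3 lay within the PH70 range and the other 2 PH80 libraries were far below it. The 6 libraries of the treated arms were above all 3 PH80 libraries for Gbp7, by a log2 difference of 0.98 in PH80_HC and 1.28 in PH80_G+H (SE 0.30).

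The chromosome 5 pair had the largest log2 differences of the 10 members between PH80 and PH70. Gbp6 was at 98.6, 139 and 129 normalised reads in PH70, 39.4, 28.4 and 57.3 in PH80, 101, 189 and 64.9 in PH80_HC and 151, 187 and 175 in PH80_G+H. None of the 9 libraries outside PH80 was as low as any of PH80, and the log2 difference from PH70 to PH80 was -1.57 (SE 0.35). Gbp10, a close copy of Gbp6, was at 135, 87.7 and 44.6 normalised reads in PH70, 8.44, 2.99 and 33.3 in PH80, 43.7, 141 and 59.7 in PH80_HC and 55.2, 87.6 and 104 in PH80_G+H. In reads, the PH80 libraries had 6, 4 and 32 for Gbp10 and the others between 20 and 267, so counting error is large here. The PH80 libraries were again below all others, and those of the remaining groups overlapped each other. Gbp10's log2 differences were -2.91 in PH80 against PH70, 2.74 in PH80_HC against PH80 and 2.89 in PH80_G+H against PH80, with an SE of 0.66.

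Of the effector IRGs, Tgtp1 (also called Irgb6) encodes one of the first IRGs to reach a vacuole. It was at 26.6, 42.0 and 20.1 normalised reads in PH70, 12.7, 15.7 and 21.9 in PH80, 134, 298 and 58.4 in PH80_HC and 51.5, 48.0 and 61.2 in PH80_G+H. Its PH80_HC libraries were spread widely, with replicate 2 the highest of the 12, and all 6 libraries of the treated arms lay above every PH70 and PH80 library. The group means of Tgtp1 were 29.6 ± 11.3 normalised reads in PH70, 16.7 ± 4.70 in PH80, 164 ± 122 in PH80_HC and 53.6 ± 6.84 in PH80_G+H, and the log2 difference was 2.95 in PH80_HC against PH80 and 1.65 in PH80_G+H against PH80 (SE 0.48). Tgtp2, which shares most of its transcript sequence with Tgtp1 and carries the same GAS and ISRE arrangement, had group means of 23.7 ± 10.7 normalised reads in PH70, 15.3 ± 2.06 in PH80, 19.4 ± 10.1 in PH80_HC and 22.7 ± 4.80 in PH80_G+H. Its log2 difference between PH80_HC and PH80 was 0.22 (SE 0.42, adjusted p = 0.880 by limma).

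Iigp1 (also called Irga6) encodes the effector IRG studied in most structural detail. Its values were 5286.5, 8297 and 6402 normalised reads in PH70, 2614.5, 2042 and 5498 in PH80, 6165, 7131 and 4805 in PH80_HC and 6477, 6597 and 6802 in PH80_G+H. PH80 replicate 3 lay within the range of PH70 and PH80_HC, whereas replicates 1 and 2 were below every other library. The 3 PH80_G+H libraries were close together for Iigp1, at 6625.5 ± 164 normalised reads, the smallest SD of its 4 groups. The log2 difference between PH80 and PH70 was -1.09 and that between PH80_G+H and PH80 was 1.10 (SE 0.31).

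Among the regulators, Irgm1 is known for its part in autophagy and in resistance to mycobacteria. It was at 946, 1086 and 859 normalised reads in PH70, 688, 633 and 789.5 in PH80, 970.2, 1116 and 782 in PH80_HC and 1593, 1434 and 1492 in PH80_G+H. All 3 PH80_G+H libraries lay above the 9 others, and PH80_HC overlapped both PH70 and PH80. The log2 difference for Irgm1 was 1.10 in PH80_G+H against PH80, 0.43 in PH80_HC against PH80 and -0.67 between the treated arms (SE 0.17).

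Irgm2, found mainly at the Golgi, was at 594, 861 and 803 normalised reads in PH70, 333, 390.3 and 462 in PH80, 879, 1345 and 499 in PH80_HC and 1006, 1000.3 and 924 in PH80_G+H. The PH80 libraries were the lowest 3 of the 12, PH80_HC spread from just above them to the highest value of all, and PH80_G+H was narrow. Igtp (also called Irgm3), located at the endoplasmic reticulum and lipid droplets, had values of 559, 614 and 421 normalised reads in PH70, 463, 280.4 and 383 in PH80, 857, 1467.5 and 1055 in PH80_HC and 1137, 821 and 941 in PH80_G+H. Both treated arms were above all 6 libraries of PH70 and PH80 for Igtp and overlapped each other. Its log2 difference was 1.58 in PH80_HC against PH80 and 1.38 in PH80_G+H against PH80 (SE 0.24).

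Over the 10 members, PH80 had the lowest group mean in 10 of 10, where it had the lowest mean in 27.9% of all tested genes. The highest mean was in PH80_G+H for 5 members (Gbp3, Gbp7, Gbp6, Irgm1 and Irgm2), in PH80_HC for 3 (Gbp2, Tgtp1 and Igtp) and in PH70 for 2 (Gbp10 and Iigp1), against 17%, 29.3% and 27.5% of all tested genes in the same order of groups. The members were chosen with these values in view, so the counts describe the choice and are given without a test.

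Between PH80 and PH70, Gbp6 and Gbp10 were below the threshold of 0.05 on the adjusted p (limma, Benjamini-Hochberg over 12570 genes), 2 of 10 members, all lower, against 2.73% of all tested genes called lower. Nothing is read from this count, since the same contrast was in view when the members were chosen. Libraries did not overlap for 5 members (Gbp2, Gbp6, Gbp10, Irgm1 and Irgm2), all lower in PH80, against 14.2% of all genes that did so. The members' median log2 difference was -0.77 and that of all genes 0.01, with single members from -2.91 (Gbp10) to -0.14 (Gbp3). The count of 2 became 0 without PH70 replicate 1 or 2 or PH80 replicate 1 or 2, 1 without PH70 replicate 3 and 4 without PH80 replicate 3.

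In PH80_HC against PH80, Gbp2, Tgtp1 and Igtp passed the threshold, all higher, where 0.652% of all genes were called higher. The libraries did not overlap for 7 members (those named and Gbp7, Gbp6, Gbp10 and Irgm2), against 8.26% of all genes. The median log2 difference of the members was 1.15 and that of all genes 0.01. The count of 3 became 1 without PH80 replicate 1 or PH80_HC replicate 1, and 5 without PH80 replicate 3. With every library scaled to the same total, the median of all genes went from 0.01 to -0.31, Gbp3 turned to -0.01, and the other 9 members stayed higher in PH80_HC.

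In PH80_G+H against PH80, Irgm1 and Gbp6 passed the threshold, both higher, where 0.111% of all genes were called higher. The libraries did not overlap for 9 of 10 members, all but Gbp2, against 8.82% of all genes. The members' median log2 difference was 1.30, and that of all genes 0.00. The count of 2 became 0 without PH70 replicate 2, PH80 replicate 1 or 2, or any 1 of the 3 PH80_G+H libraries, 1 without PH70 replicate 3, 4 without PH80_HC replicate 3 and 5 without PH80 replicate 3. These comparisons share the PH80 libraries, so their differences are not independent of each other.

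**Figure D3:**
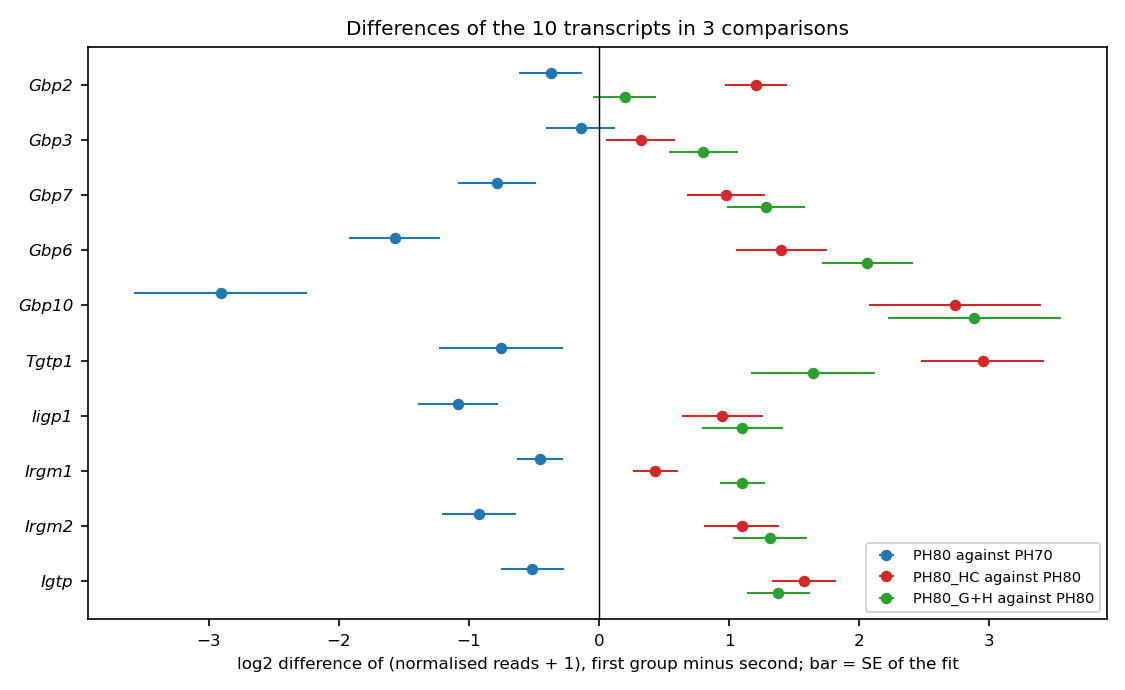
Log2 difference of (normalised reads + 1) of each member in PH80 against PH70 and in each treated arm against PH80 (x axis), with bars of 1 SE. The members lie below 0 in the first comparison and above 0 in the other 2, with Gbp10 farthest out in the first.

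Against the smaller resection, 8 of 10 members had a higher fitted level in PH80_G+H and 6 of 10 in PH80_HC. The members' median log2 difference was 0.50 in PH80_G+H and 0.18 in PH80_HC, and the second depended on single libraries. It was -0.13 without PH80_HC replicate 2 (4 higher, 6 lower), 0.09 without PH70 replicate 3 (5 and 5), 0.31 without PH80_HC replicate 3 (9 and 1) and -0.03 with every library at the same total (3 and 7), where the median of all genes went from 0.00 to -0.20. In PH80_HC against PH70, no member passed the threshold (3 had an unadjusted p under 0.05, edgeR called 0 and DESeq2 2), where 0.231% of all genes did. Libraries of Gbp2, Tgtp1 and Igtp were higher in PH80_HC without overlap, against 7.96% of all genes, with log2 differences of 0.83, 2.19 and 1.06. In PH80_G+H against PH70, no member passed it either (3 at an unadjusted p under 0.05, 0 with edgeR and 0 with DESeq2), where 0.00796% of all genes did. The libraries of 7 members were higher in PH80_G+H without overlap (Gbp3, Gbp7, Gbp6, Tgtp1, Irgm1, Irgm2 and Igtp), against 5.95% of all genes, with log2 differences between 0.39 (Irgm2) and 0.89 (Tgtp1). Gbp10 and Iigp1, the members with their highest mean in PH70, differed from it by -0.02 and 0.02 in PH80_G+H.

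Between the treated arms the members did not move as 1 group. None passed the threshold (3 at an unadjusted p under 0.05, 0 with edgeR and 3 with DESeq2), where 0.255% of all genes did. Gbp2 libraries were higher in PH80_HC and Irgm1 libraries lower, without overlap, against 8.71% and 8.4% of all genes, and the other 8 members overlapped. The log2 differences of PH80_HC minus PH80_G+H ran from -0.67 (Irgm1) and -0.66 (Gbp6) to 1.01 (Gbp2) and 1.30 (Tgtp1), with 3 members higher, 7 lower and a median of -0.19. With every library at the same total, where the median of all genes went from 0.02 to -0.21, Igtp turned from 0.20 to -0.03 and the members' median was -0.42. That median rested on single libraries: it was -0.52 without PH80_HC replicate 2 (2 higher, 8 lower), -0.01 without PH80_HC replicate 3 (5 and 5) and -0.30 without PH80_G+H replicate 1 (3 and 7). Without the 4 libraries with the steepest trend with transcript length, it was 0.02 (5 and 5).

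These differences were also set beside the promoter elements. The 3 members with the joined GAS and ISRE had log2 differences of 2.95 (Tgtp1), 1.58 (Igtp) and 1.10 (Irgm2) in PH80_HC against PH80. The 4 other members with a window had 1.21 (Gbp2), 0.98 (Gbp7), 0.43 (Irgm1) and 0.32 (Gbp3), so the sets overlapped in this comparison. In PH80_G+H against PH80 the same 3 were at 1.65, 1.38 and 1.31, and the 4 others ran from 0.20 (Gbp2) to 1.28 (Gbp7). The nearest of the 3 lay above the 4 by less than the SE of Irgm2 (0.29). Tgtp2, a gene outside the members with the same arrangement, was at 0.22 in PH80_HC against PH80, below all 4. In PH80_G+H against PH80, none of the 5 other IRG genes tested, Tgtp2 among them, was above 0.54. With Tgtp2 counted, the sets thus overlapped in this comparison too.

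Single libraries stood out across the family. PH80_HC replicate 2 had the highest value of the 12 libraries for 7 of 10 members, and PH80 replicate 2 the lowest for 6. As the mean over members of the log2 deviation from each gene's mean, PH80 replicates 1 to 3 were at -0.999, -1.29 and -0.480, PH80_HC at 0.277, 1.03 and 0.0209, and PH80_G+H at 0.365, 0.511 and 0.486, with PH70 between -0.173 and 0.240. PH80_G+H was thus the narrowest group of the 4 on this measure, and PH80 replicate 3 lay nearer to the other groups than its fellow libraries. Over the 12 libraries, the 45 pairwise Pearson correlations of members' log2 values ranged from 0.0463 (Gbp2 and Irgm1) to 0.945 (Gbp6 and Irgm2) with a median of 0.699, and within groups the median was 0.558. These points share their libraries and size factors, and some pairs share sequence.

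Markers of other cell types also differed between libraries, in part in other libraries than the members did. The 14 T cell and NK cell markers in the table summed to 122 to 139 normalised reads in PH70, 319, 123 and 98.95 in PH80 replicates 1 to 3, 258, 717 and 719 in PH80_HC and 108 to 167 in PH80_G+H. In PH80_HC replicates 1 to 3, Tgtp1 was at 134, 298 and 58.4 normalised reads, Gbp2 at 206, 308 and 209, and Igtp at 857, 1467.5 and 1055. All 11 of these markers that were tested had a higher mean in PH80_HC than in PH80 (median log2 difference 1.90), and limma called 0 of them (7 at an unadjusted p under 0.05, 0 with edgeR, 3 with DESeq2). Against PH70, 10 of the 11 had a higher mean in PH80_HC and 9 were higher without overlap, with a median log2 difference of 2.45. In that comparison limma called 1 (9 at an unadjusted p under 0.05, 0 with edgeR, 6 with DESeq2), Gzmb, a granzyme of cytotoxic cells, higher by 3.04 (SE 0.56, adjusted p = 0.0474). None of the 11 was called there without PH80 replicate 3 or any 1 library of PH70, PH80_HC or PH80_G+H. The T cell gene Cd3e and the NK cell genes Prf1 and Eomes were at 0 in at least 1 library. Of the listed T and NK cell markers, Trac, Trbc2 and Ncr1 had no row under those symbols in the deposited table. The part of T and NK cells in the PH80_HC values of Gbp2, Tgtp1 and Igtp was not tested.

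The 14 macrophage markers summed to 15696 to 21824 normalised reads in PH70, 18643 to 41922 in PH80, 29916 to 51034 in PH80_HC and 17723 to 24730 in PH80_G+H, with Ly6c2 at 0 in some library. In PH80 the macrophage sums of replicates 1 to 3 were 25574, 41922 and 18643, so the top of that range is replicate 2 alone. The part of macrophages in the member values was not tested. The 10 neutrophil markers summed to 104 to 352 in PH70, 524 to 2213 in PH80_HC and 335 to 2296 in PH80_G+H. In PH80 they summed to 5795 in replicate 2 and to 544 and 265 in replicates 1 and 3. Ly6g, Ngp, Camp and Ltf were at 0 in at least 1 of the 12 libraries. All 9 that were tested had higher means in PH80_G+H than in PH70 (median log2 difference 2.31), and in PH80 than in PH70 (1.16). In PH80_G+H against PH70, 5 had an unadjusted p under 0.05 by limma, and limma, edgeR and DESeq2 each called 0. The part of neutrophils in the member values was not tested. The 8 hepatocyte markers summed to 2.98 to 3.23 M in PH70, 1.99 to 2.43 M in PH80, 2.76 to 4.05 M in PH80_HC and 2.56 to 3.19 M in PH80_G+H. Their means were lower in PH80 than in PH70 for 8 of 8, with a median log2 difference of -0.25 and 0 calls by limma (0 at an unadjusted p under 0.05, 0 with edgeR, 1 with DESeq2). Their part in the lower member values of PH80 was not tested.

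The genes whose pattern over the 12 libraries was most like the members' mean standardised log2 value were ranked by Pearson's r among 12559 other tested genes. They were Ahr, the aryl hydrocarbon receptor (r = 0.919), Fmo1, a flavin monooxygenase (0.910), Sec24a, a coat protein of vesicles leaving the endoplasmic reticulum (0.859), and Cyp2c50, a cytochrome P450 (0.851). Next came Dennd5b (0.848), Ttc6 (0.843), Tmtc2 (0.835) and Cyp4a10, a fatty acid hydroxylase (0.835). Spearman's rho for Ahr was 0.951 and for Fmo1 0.776. Without the 2 libraries farthest from the median, which were PH80 replicates 1 and 2, r was 0.929 for Ahr and 0.781 for Fmo1, and fell to 0.563 for Cyp2c50. Ahr had group means of 491, 421, 626 and 708.0 normalised reads in PH70, PH80, PH80_HC and PH80_G+H. These correlations are a description over 12 libraries that share their groups, and no p is given because the 8 genes were picked from all genes for the highest r.

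The pathway around the members was read from 10 lists, whose 101 entries gave 81 tested genes. Of the ligands, Ifng itself had no row under that symbol in the deposited table and was not analysed here. The genes of the interferon gamma receptor did not follow the members: Ifngr1 averaged 838 ± 226 normalised reads in PH70, 1046 ± 147 in PH80, 951 ± 101 in PH80_HC and 714 ± 182 in PH80_G+H. Ifngr2 averaged 716 ± 128 normalised reads in PH70, 703 ± 109 in PH80, 618 ± 30.5 in PH80_HC and 589 ± 39.5 in PH80_G+H. Most of the other receptor and kinase genes on that list had their lowest group mean in PH80, as the members did. None of the 7 receptor and kinase genes passed the threshold in any of the 6 comparisons (at most 1 at an unadjusted p under 0.05 in a comparison, 0 with edgeR, 0 with DESeq2).

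Of the transcription factors, Irf1, which binds ISREs, averaged 905 ± 147 normalised reads in PH70, 714 ± 55.1 in PH80, 837 ± 222 in PH80_HC and 827 ± 173 in PH80_G+H, and its differences did not pass the threshold in any comparison. Irf8, a factor of myeloid cells, averaged 221 ± 34.7 normalised reads in PH70, 282 ± 65.9 in PH80, 309 ± 86.5 in PH80_HC and 217 ± 8.74 in PH80_G+H, also without a call. Irf2, which competes with IRF1 at the same elements, fell in PH80 against PH70 by 0.99 (log2, SE 0.21, adjusted p = 0.0236 by limma), a call lost without PH70 replicate 2 or 3 or PH80 replicate 1 or 2. The inhibitor Socs1 was low, at 11.8 ± 6.14 normalised reads in PH70, 10.98 ± 2.32 in PH80, 18.01 ± 2.69 in PH80_HC and 11.6 ± 7.58 in PH80_G+H, and had no call.

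Atg7, an enzyme of the conjugation system that guides IRGs and GBPs to vacuoles, fell in PH80 against PH70 by 0.84 (log2, SE 0.17, adjusted p = 0.0206 by limma), from 836 ± 60.6 to 467 ± 38.6 normalised reads. That call was lost without any 1 PH70 library or PH80 replicate 1 or 2, with an adjusted p of up to 0.0720. It was the only 1 of 12 genes on the list of vacuole loading and inflammasome partners to pass in any comparison. With Irf2, it made up the 2 of 81 pathway genes called in PH80 against PH70 (7 at an unadjusted p under 0.05, 2 with edgeR, 2 with DESeq2), against 3.82% of all genes.

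Of the 5 other GBP genes tested, 1 passed the threshold in some comparison. It was Gbp2b, a close relative and neighbour of Gbp2, at 16.3, 40.2 and 20.1 normalised reads in PH70, 25.3, 8.22 and 14.6 in PH80, 38.9, 135 and 152 in PH80_HC and 23.9, 15.8 and 16.3 in PH80_G+H. All 3 PH80_HC libraries were above PH80, though replicate 1 lay below PH70 replicate 2, and the rise over PH80 was 2.59 (log2, SE 0.53, adjusted p = 0.0387 by limma). Gbp4 averaged 92.3 ± 35.7 normalised reads in PH70, 73.1 ± 11.1 in PH80, 115 ± 50.6 in PH80_HC and 90.8 ± 39.5 in PH80_G+H, Gbp5, a partner of inflammasome assembly, 29.2 ± 4.28 normalised reads in PH70, 20.1 ± 9.23 in PH80, 26.4 ± 12.7 in PH80_HC and 35.8 ± 3.93 in PH80_G+H, and Gbp9 138 ± 54.3 normalised reads in PH70, 131 ± 54.5 in PH80, 169.7 ± 58.1 in PH80_HC and 158 ± 16.4 in PH80_G+H. None of these 3 passed the threshold in any of the 6 comparisons. Gbp8, the remaining GBP gene tested, averaged 71.7 ± 20.7 normalised reads in PH70 and 97.3 ± 37.5 in PH80. It averaged 166 ± 89.9 in PH80_HC and 58.1 ± 12.7 in PH80_G+H. Unlike the members, Gbp8 was not lowest in PH80, and its PH80_G+H libraries all lay below those of PH80. Of the other IRG genes, Ifi47 (also called Irgd) was at 786, 824 and 660.0 normalised reads in PH70, 565, 324 and 589.6 in PH80, 1061, 1137 and 1126 in PH80_HC and 681, 565 and 730.2 in PH80_G+H. All 3 PH80_HC libraries were above the 9 others, and Ifi47 rose over PH80 by 1.22 (log2, SE 0.22, adjusted p = 0.0253 by limma). Without any 1 PH80_HC library the adjusted p of Ifi47 was between 0.0504 and 0.0581.

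Of the targets of interferon gamma, Cxcl9, a chemokine for T cells, was at 67.8, 87.7 and 178 normalised reads in PH70, 226, 111 and 78.1 in PH80, 324, 754 and 458 in PH80_HC and 92.0, 87.1 and 90.4 in PH80_G+H. Every PH80_HC library was above all others, by 1.94 against PH80 (log2, SE 0.41, adjusted p = 0.0454 by limma), 2.23 against PH70 (adjusted p = 0.0474) and 2.41 against PH80_G+H (adjusted p = 0.0371). Cxcl10, a related chemokine, was highest in PH80, with means of 72.4 ± 38.0 normalised reads in PH70, 152 ± 26.9 in PH80, 87.5 ± 45.0 in PH80_HC and 90.5 ± 23.1 in PH80_G+H, and had no call. Psmb8, an immunoproteasome subunit, averaged 924 ± 169 normalised reads in PH70, 866 ± 325 in PH80, 1549 ± 591 in PH80_HC and 931 ± 203 in PH80_G+H, with a log2 difference of 0.84 in PH80_HC against PH80 (adjusted p = 0.205 by limma). Cd74, the invariant chain of MHC class II, rose in PH80_HC against PH80 by 2.53 (log2, SE 0.50, adjusted p = 0.0344 by limma). The 15 antigen presentation genes all had higher means in PH80_HC than in PH80, with a median log2 difference of 0.84 and 1 call, and 13 of 15 did when every library was scaled to the same total. In PH80_HC against PH80, 5 of the 81 pathway genes were called, Gbp2b, Ifi47, Cd74 and Cxcl9 higher and the type I target Oasl1 lower by 1.51 (adjusted p = 0.0377 by limma), where 0.891% of all genes were called (27 at an unadjusted p under 0.05, 4 with edgeR, 16 with DESeq2). Of these, the calls of Gbp2b, Cd74, Cxcl9 and Oasl1 were each lost without PH70 replicate 2, PH80 replicate 3, or PH80_HC replicate 2 or 3, and without between 2 and 5 further libraries, with adjusted p-values of up to 0.134.

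**Figure D4:**
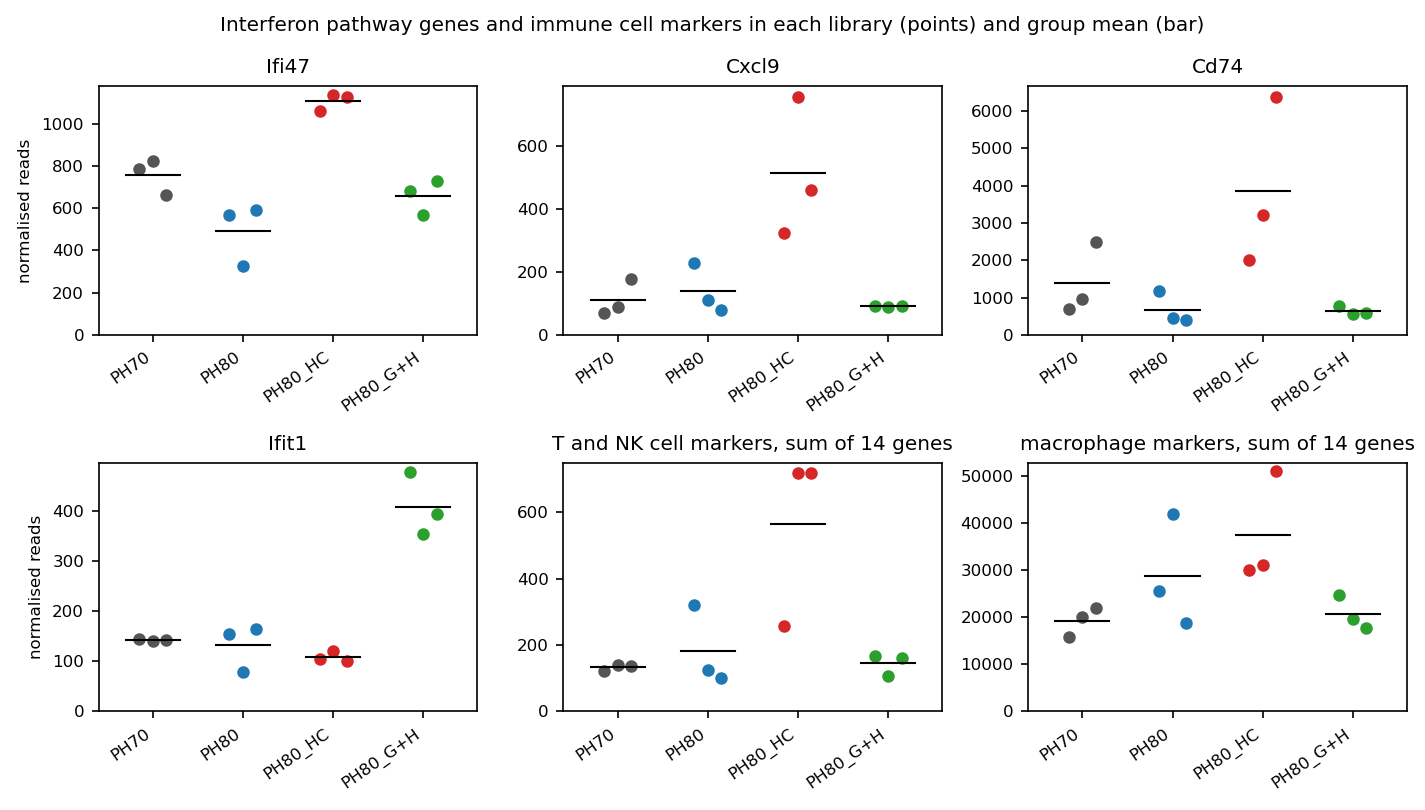
Normalised reads (y axis, from 0) of Ifi47, Cxcl9, Cd74 and Ifit1 and the summed markers of T and NK cells and of macrophages in each of the 12 libraries (points, by group), with a bar at the group mean. Ifit1 is highest in the 3 PH80_G+H libraries, Ifi47 and Cxcl9 in the 3 PH80_HC libraries, and the T and NK cell sum of PH80_HC replicate 1 lies within the range of PH80.

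Among the targets of type I interferon, Isg15, a ubiquitin-like protein, averaged 358 ± 83.8 normalised reads in PH70, 363 ± 163 in PH80, 304 ± 47.6 in PH80_HC and 949 ± 232 in PH80_G+H, and its log2 difference of 1.48 in PH80_G+H against PH80 did not pass (SE 0.33, adjusted p = 0.129 by limma). In that comparison, Ifit1 rose by 1.68 (adjusted p = 0.0243 by limma), Dhx58 by 1.32 (0.0243) and Usp18, which restrains interferon receptor signalling, by 1.26 (0.0310). These were the 3 of 81 pathway genes called, where 0.119% of all genes were (21 at an unadjusted p under 0.05, 3 with edgeR, 12 with DESeq2). The calls of Ifit1, Dhx58 and Usp18 were lost without PH70 replicate 2, PH80 replicate 1 or 2, or any 1 PH80_G+H library, and that of Usp18 also without PH80 replicate 3, with adjusted p-values of up to 0.212.

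Between the treated arms, all 15 tested type I targets had lower means in PH80_HC than in PH80_G+H, with a median log2 difference of -1.34 and 13 of 15 without overlap, against 8.4% of all genes lower without overlap. Without PH80_HC replicate 1, 14 of the 15 were lower. The members' median was -0.19, with 1 of 10 lower without overlap, and lay between -0.52 and -0.01 without 1 library of PH80_HC. Of the pathway genes, 9 of 81 were called in this comparison, Cxcl9 higher and 8 lower, where 0.255% of all genes were called (39 at an unadjusted p under 0.05, 11 with edgeR, 20 with DESeq2). The 8 were Dhx58, a helicase of RNA sensing (-1.73, adjusted p = 0.00261 by limma), Ifit1 (-1.90, 0.00994), Oasl1, Usp18, Rtp4, Oasl2, Rsad2 and Ifi44, the last with an adjusted p of 0.0498. The call of Dhx58 was kept without any 1 library, and the 8 others, Cxcl9 among them, were each lost without PH80_HC replicate 3 or PH80_G+H replicate 1 or 3 and without up to 6 further libraries, with adjusted p-values of up to 0.205. No pathway gene was called in PH80_G+H against PH70 (16 at an unadjusted p under 0.05, 0 with edgeR, 8 with DESeq2). In PH80_HC against PH70, Cxcl9 was the only 1 called (23 at an unadjusted p under 0.05, 0 with edgeR, 5 with DESeq2), and its call was lost without any 1 library of PH70, PH80_HC or PH80_G+H, with an adjusted p of up to 0.223.

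**Figure D5:**
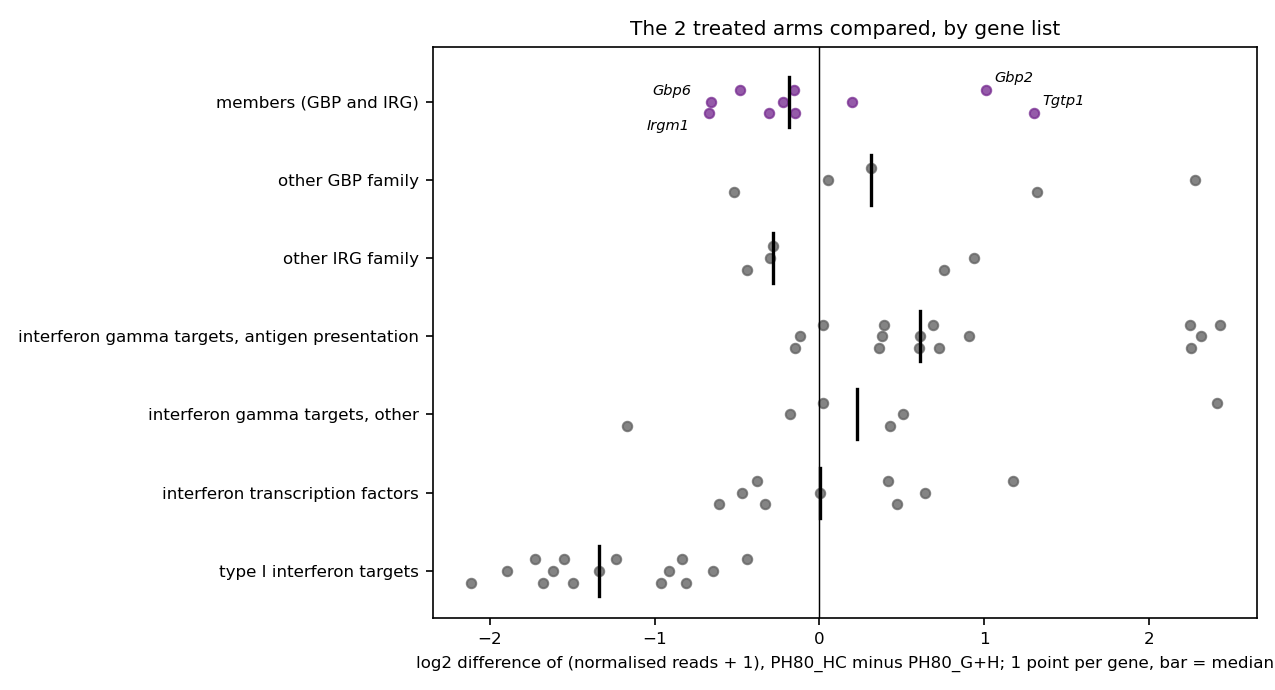
Log2 difference of (normalised reads + 1) between the treated arms, PH80_HC minus PH80_G+H (x axis), for the members and for 6 of the 10 lists of pathway genes, with 1 point per gene and a bar at the list's median. The type I targets all lie below 0, and the members spread on both sides of it, from -0.67 (Irgm1) to 1.30 (Tgtp1).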

How the data were processed

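RNA of 12 liver libraries was measured by sequencing. Extraction used a Qiagen column kit and library preparation the TruSeq Stranded mRNA kit on 100 ng of total RNA, per the labels' protocols. Per the submitters' processing notes, DESeq2 was used and the build was GRCm38 (mm10). No source used here names the aligner, counter or annotation. The deposited values are a normalised signal, 1 per gene and library, in which each library's counts are divided by its size factor. This was read from the values, 100% of which gave whole reads to within 0.01 (the farthest was 0.000262 off).

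The scale of analysis was log2(value + 1), for genes with at least 10 normalised reads in at least 3 libraries (12570 of 13554). Limma (3.58.1, R 4.3.3) with an intensity trend was fitted with group alone to the 12 libraries together, two-sided, with Benjamini-Hochberg adjustment over all genes and a threshold of 0.05. Between PH80 and PH70, for example, 480 genes passed. The script was tested on simulated data. Alternatives were edgeR (4.0.16) and DESeq2 (1.42.0) on recovered reads, other pseudocounts, filters and scalings, a replicate block, and leaving out libraries. Same-numbered replicates were not treated as pairs.

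The members, the 10 pathway lists and the 9 marker lists (T and NK cells, B cells, macrophages, neutrophils, dendritic cells, endothelial cells, stellate cells, hepatocytes and pancreas) were chosen with earlier results of these data known, so the members' values are a description without tests. All members are named. Of the pathway lists, genes past the threshold (up to 4 per list and comparison, some without values for length) and 15 fixed genes are named, Ifng, Irf1, Irf8, Ifngr1, Ifngr2, Socs1, Cxcl9, Cxcl10, Psmb8, Ifi47, Tgtp2, Gbp4, Gbp5, Gbp9 and Isg15. Gbp8 is named in addition, as the other GBP gene tested whose lowest group mean was not in PH80. The 8 genes of most alike pattern are named by Pearson's r. Another gene that these rules name is not reported here and is left out of the lists, their counts and that ranking. Promoter windows are from RefSeq (GRCm38.p6), transcripts and coordinates from GENCODE M21.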

Additional observations from a re-analysis of the deposited data

How the results depend on the processing

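Of 1440 alternative log2 values of members, 1416 moved by less than the spread between replicates, and 24 moved by more. Many of the 1416 could not move, because some settings leave a fitted log2 difference unchanged by design. These are the other filters, the fit without the intensity trend, the fit of only the groups compared and the replicate block. Leaving out a library outside the comparison is another, so the count of 1416 is no measure of stability. Of 479 alternative values of called pathway genes, 182 were no longer past the threshold, and the cause was not tested.

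The counts of genes and of members past the threshold depended on the setting. For PH80 against PH70 (480 genes, 2 members) the genes numbered 952 by DESeq2, 237 with every library at the same total, 293 with a replicate block and 303 without the 4 libraries with the steepest length trend. The members numbered 4 by DESeq2, 1 by edgeR, without the intensity trend or with the block, and 0 at the same total or without those 4 libraries. For PH80_HC against PH80 (112 and 3) there were 2 genes and 0 members with only these groups fitted, 508 and 6 by DESeq2, 72 and 1 at the same total, and 65 genes with the block, 206 with the length trend removed and 64 without the 4 libraries. For PH80_G+H against PH80 (15 and 2) both counts were 0 without the intensity trend and at the same total. DESeq2 gave 203 and 6, the block 9 and 0, removing the length trend 32 genes, leaving out the 4 libraries 24 and 1, and edgeR 1 member.

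For PH80_HC against PH70 (29 and 0) there were 17 genes with at least 50 normalised reads, 8 without the intensity trend, 15 by edgeR, 10 with the block, and 253 with 2 members by DESeq2. For PH80_G+H against PH70 (1 and 0) there were 3 genes with a pseudocount of 5, 0 at the minimum of 50, 13 with only these groups, 66 by DESeq2, 5 with the length trend removed and 9 without the 4 libraries. For PH80_HC against PH80_G+H (32 and 0) there were 303 genes and 3 members by DESeq2, and 8 genes with the block and 16 without the 4 libraries.

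Leaving out 1 library gave between 61 and 725 genes and 0 and 4 members for PH80 against PH70, 28 and 125 genes and 1 and 5 members for PH80_HC against PH80, and 0 and 26 genes and 0 and 5 members for PH80_G+H against PH80. It gave 1 to 55 genes and 0 to 1 members for PH80_HC against PH70, 0 to 6 genes and 0 members for PH80_G+H against PH70, and 2 to 59 genes and 0 members for PH80_HC against PH80_G+H. At the same total, the share of calls that were higher went from 28.5% to 53.6% for PH80 against PH70, from 73.2% to 23.6% for PH80_HC against PH80, from 48.3% to 23.8% for PH80_HC against PH70 and from 34.4% to 17.95% for PH80_HC against PH80_G+H.

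The labels state no pairing by replicate number. Deviations of same-numbered libraries from their group means correlated between -0.37 and 0.37, which with so few libraries per group cannot decide whether samples were paired. Depth limits Gbp10 and Tgtp1, with as few as 4 and 9 reads in a library.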

Other observations

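Among the inhibitors and cytokines of the interferon pathway, Usp18 was the 1 of 5 inhibitors called in any comparison. Neither of the 2 interferon-inducing cytokines tested was called in any comparison, with at most 1 at an unadjusted p under 0.05 and 0 by edgeR and by DESeq2.

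Of the other cell types, limma called 0 of 4 B cell, 0 of 3 dendritic, 0 of 10 endothelial and 0 of 7 stellate cell markers in any comparison, and with an unadjusted p under 0.05 there were at most 0, 1, 2 and 3 of them in a comparison. EdgeR called 0 of these markers in every comparison, and DESeq2 called 1 endothelial marker in PH80_HC against PH80. The 5 B cell markers gave 4 in the table, whose sum was 74.0 to 146 normalised reads in PH80 and 74.5 to 243 in PH80_HC. The 10 endothelial markers all had lower fitted log2 levels in PH80_HC than in PH70, with a median log2 difference of -0.30. The mean of Clec4g was nevertheless higher in PH80_HC, at 1780 normalised reads against 1667 in PH70. The 7 stellate markers all had lower means in PH80_HC than in PH80_G+H, with a median log2 difference of -0.76. Of the 2 pancreas genes in the table, Cela2a was lower in PH80 than in PH70 (log2 difference -2.15, limma). It had 17, 5 and 17 reads in the PH80 libraries. Cela1, the other gene, differed by -0.008. Of the 2 genes, limma called Cela2a in that comparison, edgeR called 0 and DESeq2 1. Of 9 tested neutrophil markers, limma called 0 in every comparison, edgeR 0 and DESeq2 at most 3.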
